A study of Mus musculus with 6 samples.

Results

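The 36 genes described here encode the chaperones, oxidoreductases, stress sensors, translocation channel and degradation machinery of the endoplasmic reticulum (ER). They were taken by name, as the members of a fixed list of ER chaperone, unfolded protein response (UPR) and ER-associated degradation (ERAD) genes, and all 36 of 36 were found among the 55571 gene entries of the count table. RNA was sequenced from E0771, a mouse mammary carcinoma cell line, in 3 libraries of cells expressing wild-type Malt1 (Malt1-WT) and 3 libraries of cells carrying the vector control. All 6 libraries were from unstimulated cells, and the labels do not describe either line as a clone or a pool. Malt1 encodes a paracaspase, a protease and scaffold that acts upstream of NF-kB. The comparison asks how expression differs between cells with introduced Malt1 and cells with the vector.

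Proteins that enter the secretory pathway are folded in the ER by chaperones such as BiP (Hspa5) and GRP94 (Hsp90b1), and their disulphide bonds are formed by protein disulphide isomerases that the oxidase Ero1 recharges. When unfolded proteins build up, the sensors IRE1 (Ern1), PERK (Eif2ak3) and ATF6 start the UPR: IRE1 splices Xbp1 mRNA into the form that encodes the active transcription factor, PERK slows translation and raises ATF4, and ATF6 is cut into a transcription factor in the Golgi. Proteins that cannot be folded are extracted and degraded by ERAD, through a channel complex built around Hrd1 (Syvn1) and Sel1l. Gene counts do not separate spliced from unspliced Xbp1, and they say nothing about cleavage of ATF6 or phosphorylation of PERK.

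Total counts were 17601656 to 20543778 per library in Malt1-WT and 17615241 to 19874209 in the vector control, and mitochondrially encoded genes held 2.07% to 2.13% of the counts in Malt1-WT and 2.26% to 2.32% in the vector control. Malt1 itself had 5526, 6176 and 5087 counts in the Malt1-WT libraries and 517, 633 and 611 in the vector control libraries. Of 7 epithelial markers, Krt8 (1021 to 1158 counts per library in Malt1-WT and 1233 to 1430 in the vector control) and Epcam (95 to 132 counts in Malt1-WT and 121 to 125 in the vector control) were detected well, whereas Cdh1, Krt18, Krt19, Krt7 and Cldn7 had at most 9 counts in any library. Summed levels of 7 leukocyte markers were 2.35 to 3.39 CPM (counts scaled to library size and TMM factor) in Malt1-WT and 3.03 to 4.76 CPM in the vector control, with Tyrobp at 0 in all 6 libraries. Within that sum Adgre1 was higher, with 21, 32 and 28 counts in Malt1-WT and 2, 1 and 0 in the vector control, and Lyz2 was lower, with 5, 19 and 17 counts in Malt1-WT and 72, 92 and 57 in the vector control. The 5 fibroblast markers summed to 138 to 149.8 CPM in Malt1-WT and 195 to 207 CPM in the vector control, and the 3 endothelial markers to 10.2 to 10.8 CPM in Malt1-WT and 4.58 to 5.70 CPM in the vector control. Pdgfra supplied most of the fibroblast sum (mean 116 CPM in Malt1-WT and 161 CPM in the vector control). Col1a1 (log2 fold change -0.88) and Pdgfra (-0.48) were called lower in Malt1-WT, and Dcn and Lum were not called. Col1a2, not tested, had 0, 0 and 1 counts in Malt1-WT and 6, 18 and 6 in the vector control. Pecam1 supplied most of the endothelial sum (mean 9.69 CPM in Malt1-WT and 4.77 CPM in the vector control). Among 5 plasma cell markers, Jchain and Igkc were at 0 in all 6 libraries. Mzb1 had at most 3 counts and Tnfrsf17 at most 1 count in any library. Sdc1 alone supplied nearly all of the sum of 1019 to 1031 CPM in Malt1-WT and 988 to 1029.6 CPM in the vector control. The part of any of these in the results was not tested, and in bulk RNA fewer cells of a type and less RNA per cell cannot be told apart.

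Promoter sequences are shown first, because some of these genes carry a DNA element through which the UPR transcription factors are known to act. The ER stress response element (ERSE) is CCAAT, then 9 bases of any kind, then CCACG, and it is bound by ATF6 or XBP1 together with NF-Y. RefSeq promoters of build GRCm38.p6, from 250 bases before to 50 bases after the start site, were matched for 31 of the 36 genes, with Ero1l and Ero1lb found under their current symbols Ero1a and Ero1b. No promoter sequence was used for Hyou1, Manf, Atf6, Derl1 and Sec61a1. An exact ERSE on either strand was present in 10 of the 31 genes (32.3%), against 39 of all 32817 promoters (0.119%). A second element, ERSE-II (ATTGG, 1 base of any kind, CCACG), was present in 2 of the 31 (Dnajb11 and Herpud1), against 0.0366% of all promoters. The UPR element was searched in 1 exact form only, TGACG followed directly by TGG, and variants of it were not looked at. That form was in none of the 31 and in 0.676% of all promoters. The shorter CCACG, which every ERSE and ERSE-II contains, was in 25 of the 31 (80.6%) and 32.8% of all. Listed genes were counted per gene and the background per promoter. As the list was chosen to hold UPR genes, these shares are descriptive and not a test. A match describes letters in this window and does not show that a factor binds there.

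The whole window is given for Hspa5, the most abundant gene of the list per length in Malt1-WT, and for Ero1l, the gene with the largest increase, which has no ERSE. The Hspa5 window lies at chr2:34771840-34772139 on the plus strand and the Ero1l window at chr14:45318523-45318822 on the minus strand. Capitals mark the exact ERSE, whose first base in Hspa5 lies 65 bases before the start site.
Hspa5: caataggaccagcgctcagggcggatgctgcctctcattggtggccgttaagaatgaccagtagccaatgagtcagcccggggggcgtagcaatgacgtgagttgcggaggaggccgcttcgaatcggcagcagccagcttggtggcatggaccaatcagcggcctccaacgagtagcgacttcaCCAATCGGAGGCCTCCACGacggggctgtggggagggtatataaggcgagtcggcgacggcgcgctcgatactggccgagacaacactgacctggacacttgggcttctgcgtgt
Ero1l: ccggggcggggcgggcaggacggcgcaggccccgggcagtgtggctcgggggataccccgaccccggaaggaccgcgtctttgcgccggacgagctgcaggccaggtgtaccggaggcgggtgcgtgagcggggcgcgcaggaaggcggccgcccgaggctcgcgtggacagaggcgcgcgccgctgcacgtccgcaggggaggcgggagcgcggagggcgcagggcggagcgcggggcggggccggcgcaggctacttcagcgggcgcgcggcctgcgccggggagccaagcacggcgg

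The exact elements of the other ERSE genes are given with 15 bases on either side, in the direction of each gene and with the element in capitals. Elements that begin with CGTGG read the ERSE on the opposite strand. They lie at chr10:86705623-86705671 and chr10:86705518-86705566 (Hsp90b1, minus), chr8:84847060-84847108 (Calr, minus), chr11:50325785-50325833 (Canx, minus), chr12:17266476-17266524 (Pdia6, plus), chr14:118937812-118937860 (Dnajc3, plus), chr15:88819505-88819553 (Creld2, plus), chr19:6046517-6046565 (Syvn1, plus), chr10:75893227-75893275 (Derl3, plus) and chr13:12565667-12565715 (Ero1lb, plus).
Hsp90b1, distal: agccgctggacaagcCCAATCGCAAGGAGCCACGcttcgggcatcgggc
Hsp90b1, proximal: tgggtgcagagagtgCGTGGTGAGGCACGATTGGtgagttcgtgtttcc
Calr: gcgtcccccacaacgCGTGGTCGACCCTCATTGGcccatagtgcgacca
Canx: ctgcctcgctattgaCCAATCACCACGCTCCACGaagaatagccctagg
Pdia6: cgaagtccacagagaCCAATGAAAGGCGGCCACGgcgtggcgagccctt
Dnajc3: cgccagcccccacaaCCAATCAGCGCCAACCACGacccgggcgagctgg
Creld2: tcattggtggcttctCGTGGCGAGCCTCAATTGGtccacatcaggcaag
Syvn1: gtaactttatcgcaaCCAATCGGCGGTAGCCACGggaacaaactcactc
Derl3: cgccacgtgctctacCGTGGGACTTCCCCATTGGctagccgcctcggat
Ero1lb: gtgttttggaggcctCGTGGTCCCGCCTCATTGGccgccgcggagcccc

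Expression of the ER genes was mostly higher in Malt1-WT. Of the 33 that passed the filter on low counts, 28 were higher, 1 (Edem3) was lower and 4 (Dnajc3, Eif2ak3, Sel1l and Ssr1) did not pass the test, at a Benjamini-Hochberg adjusted p under 0.05 in edgeR's quasi-likelihood test over all 13594 genes tested. The remaining 3, Atf6, Wfs1 and Derl3, had too few counts to be tested. The 28 make 84.8% of the 33, where 31.0% of all genes tested were called higher, 30.2% lower and 61.2% in either direction. The list was chosen with earlier results of these data known, so this share is descriptive and not a test. The median log2 fold change of the 33 was 0.40, against -0.00 for all genes tested. Since so many genes differed between the groups, the size of each change matters more than its call. In a test against a 1.2-fold change 22 of the 33 were higher (66.7%), with 19.3% of all genes tested, and against a 1.5-fold change 11 were higher (33.3%), with 10.2% of all. The ER genes were also abundant, with a median of 6.90 log2 CPM against 4.65 for all genes tested, and 41.3% of the 2078 genes at or above that level were called higher. Nothing in the labels ties the 3 libraries of a line to separate cultures, so the p-values measure only the spread between these libraries, which may be technical. Values after ± are SDs over the 3 libraries of a group.

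**Figure D1:**
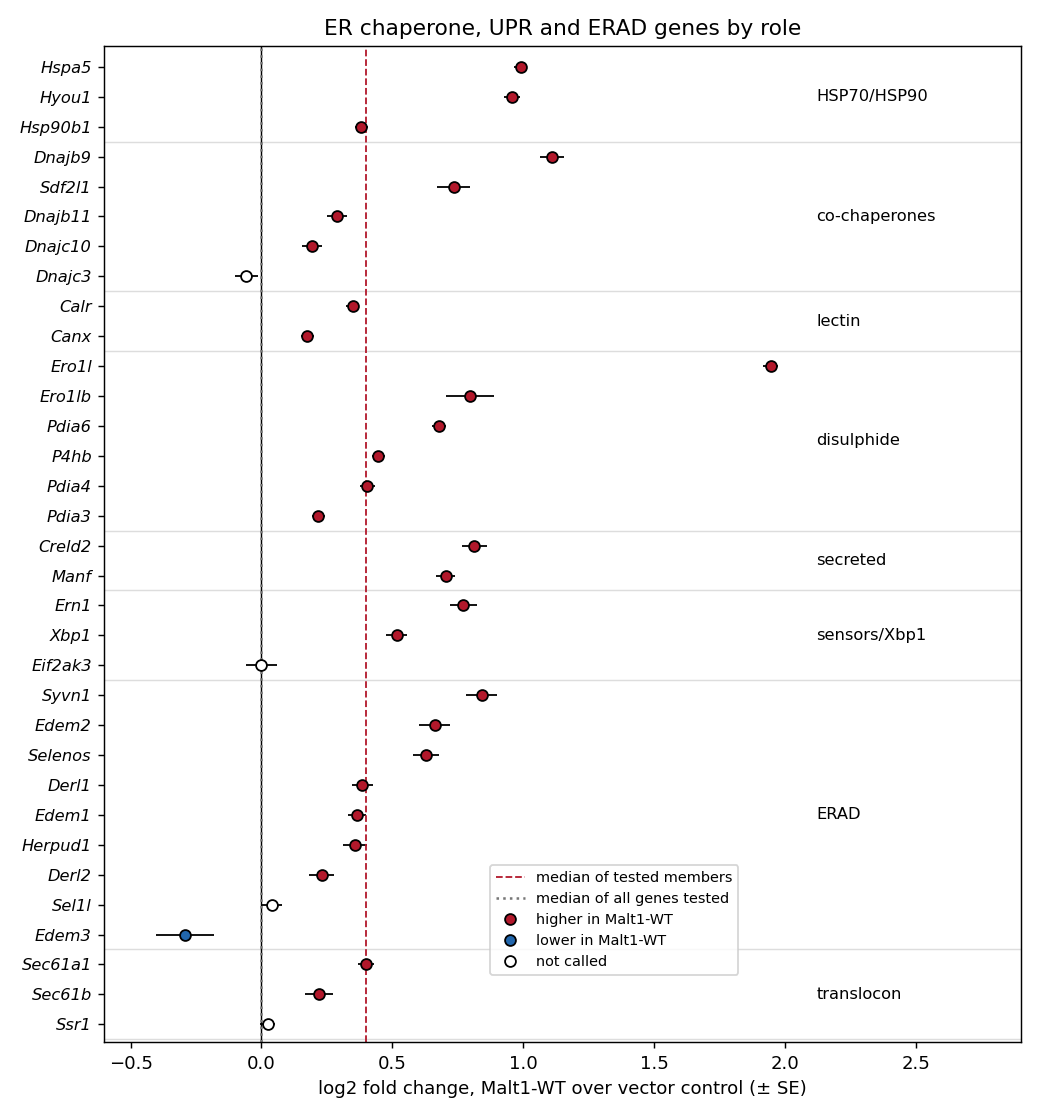
Log2 fold change of Malt1-WT over vector control (x axis, point, with its standard error as a bar) for the 33 tested genes, grouped by role from top to bottom; red points were called higher, blue lower and white neither, the dashed line is the median of the 33 and the dotted line the median of all genes tested. Ero1l stands at 1.95, Edem3 alone is called lower at -0.29, and Dnajc3, Eif2ak3, Sel1l and Ssr1 lie near 0.

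The summed level of all 36 genes was 15278, 15125 and 15352 CPM in the Malt1-WT libraries and 10350, 10361 and 10524 CPM in the vector control libraries. The 3 Malt1-WT sums lay above all 3 vector sums, with a ratio of means of 1.46. Hspa5 supplied 23.3% and Ero1l 19.2% of the difference between the group means, and the ratio was 1.31 without these 2 genes. By role, the ratio was 1.67 for the HSP70 and HSP90 chaperones, 1.67 for the secreted stress proteins and 1.58 for the disulphide enzymes. It was 1.31 for ERAD, 1.30 for the co-chaperones and 1.14 for the translocon.

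Hspa5 (chr2:34771970-34777547) encodes BiP, the HSP70 chaperone of the ER lumen and the protein that holds the UPR sensors inactive. It stood at 2291, 2241 and 2275 CPM in Malt1-WT and 1122, 1149 and 1156 CPM in the vector control. All 3 Malt1-WT libraries were close to 2 times the vector level, a log2 fold change of 0.99 (SE 0.0240, edgeR adjusted p = 3.34e-37). Per kilobase of annotated exon, Hspa5 was the most abundant of the 36 genes in Malt1-WT (537 CPM per kb) and the fifth in the vector control (270.1 CPM per kb), where Calr led at 407 CPM per kb. Hyou1 (chr9:44379490-44392369), an HSP110-type exchange factor for BiP, stood at 499, 493 and 498 CPM in Malt1-WT and 267, 244 and 256 CPM in the vector control, with groups well apart (log2 fold change 0.96, SE 0.0310, adjusted p = 1.02e-31). Hsp90b1 (chr10:86690209-86705509), the HSP90 of the ER, averaged 1492 ± 25.2 CPM in Malt1-WT and 1145 ± 5.97 CPM in the vector control (SD, n = 3 libraries each), a log2 fold change of 0.38 (SE 0.0244, edgeR adjusted p = 2.16e-19). Its annotated exons share 415 bases with the opposite-strand pseudogene 1810014B01Rik, which had 651 counts in the 6 libraries together, against 149096 for Hsp90b1.

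The co-chaperones, which guide HSP70 to its clients, moved unevenly. Dnajb9 (chr12:44205559-44210326), a J-domain protein that helps BiP repress IRE1, had the largest change among them. Its level was 118, 116 and 109 CPM in Malt1-WT and 53.2, 53.9 and 51.7 CPM in the vector control, a log2 fold change of 1.11 (SE 0.0448, adjusted p = 1.27e-27). Sdf2l1, a partner of the BiP and Dnajb11 chaperone cycle, was 1.66-fold higher, with 52.0, 46.6 and 53.3 CPM in Malt1-WT and 28.9, 30.9 and 31.3 CPM in the vector control. Dnajb11 (log2 fold change 0.29) and the disulphide reductase gene Dnajc10 (0.19) were called higher, but neither passed the test against a 1.2-fold change. Dnajc3, an inhibitor of PERK and co-chaperone of BiP, did not pass the test. It stood at 81.0, 82.8 and 86.8 CPM in Malt1-WT and 85.5, 86.5 and 88.7 CPM in the vector control, and the groups overlapped. Its log2 fold change was -0.06 with a 95% interval of -0.14 to 0.03 (edgeR adjusted p = 0.249). With scaling by library size only, Dnajc3 was called lower (-0.13, adjusted p = 0.00599).

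The lectin chaperones calnexin (Canx) and calreticulin (Calr), which hold glycoproteins during folding, were both higher in Malt1-WT, by less than 1.5-fold. Calr (chr8:84841850-84846934) averaged 1492 ± 33.2 CPM in Malt1-WT and 1172 ± 21.0 CPM in the vector control (log2 fold change 0.35). Canx (chr11:50293961-50325673) averaged 1242 ± 12.6 CPM in Malt1-WT and 1100.1 ± 18.7 CPM in the vector control (log2 fold change 0.18). The groups did not overlap for either gene, and Canx did not pass the test against a 1.2-fold change.

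**Figure D2:**
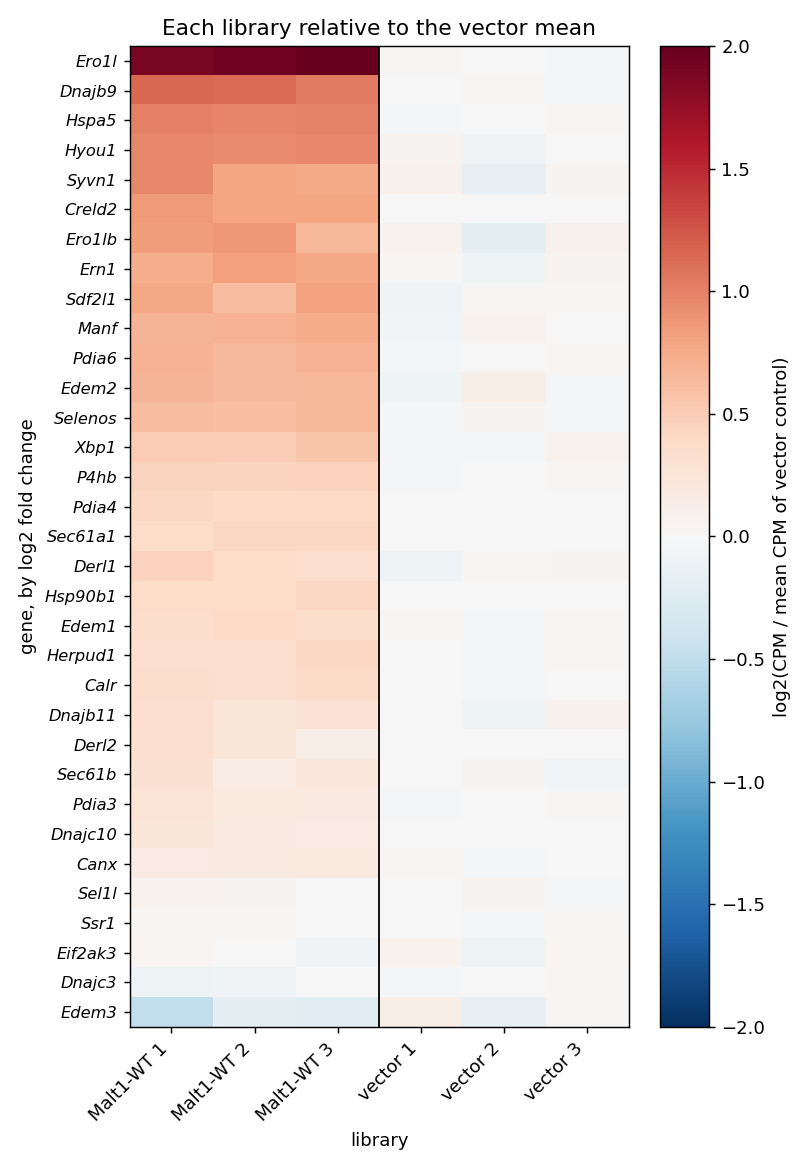
Level of each of the 33 tested genes in each library as log2 of its CPM over the mean CPM of the vector control (colour scale, red above and blue below), with genes down the page by log2 fold change and the 3 Malt1-WT libraries left of the 3 vector control libraries. The 3 Malt1-WT columns are alike from Ero1l at the top to Edem3 at the bottom, where Malt1-WT replicate 1 has the lowest value, 8.61 CPM.

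All 6 genes of disulphide bond formation in the list were higher in Malt1-WT, where 31.0% of all genes tested were, while 19 further isomerases and folding enzymes had 8 higher and 8 lower. Ero1l (chr14:45283087-45318771), the ERO1-alpha oxidase that passes electrons from the isomerases to oxygen and is also known as a hypoxia-inducible gene, had the largest change of the list. It stood at 1207, 1259.7 and 1296 CPM in Malt1-WT and 329, 326 and 321 CPM in the vector control. That is a 3.85-fold difference (log2 fold change 1.95, SE 0.0284, edgeR adjusted p = 4.97e-47), and Dnajb9 followed with 2.16-fold. Ero1lb (chr13:12565874-12611396), the second ERO1 gene, known from pancreatic beta cells, was much less abundant, at 3.10 CPM per kb in Malt1-WT and 1.79 CPM per kb in the vector control, where Ero1l stood at 237 CPM per kb in Malt1-WT and 61.6 CPM per kb in the vector control. Its CPM of 21.2, 21.8 and 18.9 in Malt1-WT lay above the 12.6, 10.5 and 12.7 in the vector control (log2 fold change 0.80, SE 0.0935).

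Among the isomerases, which exchange disulphides in client proteins, Pdia6 (chr12:17266545-17284770) changed most. It encodes an isomerase that works beside BiP. Its level was 1176, 1144 and 1178 CPM in Malt1-WT and 706, 732 and 746 CPM in the vector control (log2 fold change 0.68, SE 0.0263, adjusted p = 2.05e-28). P4hb, the archetypal disulphide isomerase, averaged 1503 ± 13.7 CPM in Malt1-WT and 1103 ± 25.2 CPM in the vector control (SD, n = 3 libraries each). The log2 fold change of P4hb was 0.45, that of Pdia4 was 0.40 and that of Pdia3, the partner of calnexin and calreticulin, was 0.22. Pdia3 was the only one of the 6 not to pass the test against a 1.2-fold change.

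Manf and Creld2 encode small ER proteins that are secreted under stress. Manf (chr9:106838312-106891979) stood at 200.1, 202 and 208 CPM in Malt1-WT and 119.6, 131 and 124 CPM in the vector control (log2 fold change 0.70, SE 0.0364, edgeR adjusted p = 4.31e-23). Creld2 (chr15:88819646-88826683) stood at 88.1, 84.1 and 84.6 CPM in Malt1-WT and 49.1, 48.4 and 48.7 CPM in the vector control (log2 fold change 0.81, SE 0.0474, edgeR adjusted p = 5.71e-21). Both passed the test against a 1.5-fold change, and their groups were far apart. Annotated exons of Manf share 146 bases with the opposite-strand gene Dcaf1 (4.14% of the Manf exon length), and Dcaf1 was 0.22 higher on the log2 scale.

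The sensors differed from each other. Ern1 (chr11:106394650-106487852), which encodes IRE1-alpha, stood at 72.0, 77.2 and 74.7 CPM in Malt1-WT and 44.3, 41.4 and 45.6 CPM in the vector control, with every Malt1-WT library higher (log2 fold change 0.77, SE 0.0517, adjusted p = 1.29e-18). Xbp1 (chr11:5520659-5525893), whose mRNA IRE1 splices, had 136, 136 and 141 CPM in Malt1-WT and 93.6, 93.8 and 101 CPM in the vector control (log2 fold change 0.52, SE 0.0396, adjusted p = 1.82e-16). Eif2ak3 (chr6:70844515-70905245), which encodes PERK, was not called. Its level was 45.9, 45.1 and 42.8 CPM in Malt1-WT and 46.6, 41.5 and 45.8 CPM in the vector control, and the Malt1-WT values lay within the vector range. The 95% interval of its log2 fold change ran from -0.12 to 0.12 (adjusted p = 0.994), so a change of 1.2-fold in either direction lay outside it.

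**Figure D3:**
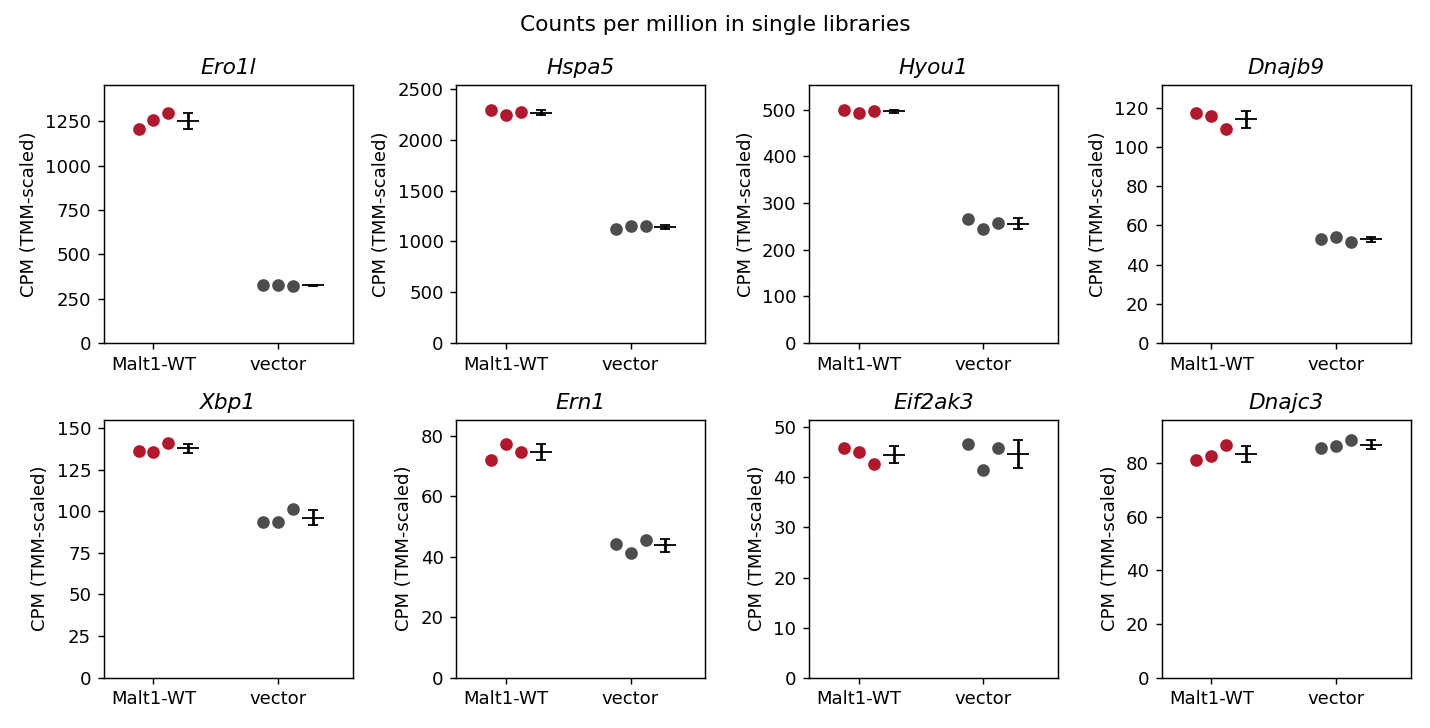
CPM of Ero1l, Hspa5, Hyou1, Dnajb9, Xbp1, Ern1, Eif2ak3 and Dnajc3 (y axes from 0) in the 3 Malt1-WT libraries (red) and the 3 vector control libraries (grey), with the mean and SD beside each group. The groups are apart in the first 6 panels and overlap for Eif2ak3 and Dnajc3.

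Atf6 (chr1:170704674-170867771, minus strand), the third sensor and a gene that mouse tissues express broadly, was close to undetected. It had 2, 2 and 4 counts in the Malt1-WT libraries and 0, 3 and 1 in the vector control libraries. Its exons share no base with another annotated gene that had counts in these libraries. Overlap with genes without counts was not looked at. The run of protein-coding genes around it was looked at after these values were seen. From Sh2d1b2 to Fcrla, over 695 kb, 11 consecutive protein-coding genes had under 100 counts each in the 6 libraries together, the highest being Fcrla with 89. Fcrla was detected mainly in Malt1-WT, with 26, 37 and 22 counts there and 3, 0 and 1 in the vector control. The run includes Dusp12, a phosphatase gene directly beside Atf6, with 3, 3 and 1 counts in Malt1-WT and 2, 1 and 1 in the vector control, and Nos1ap on the other side with 11 in all 6 libraries. Outside this run, 22 of the 40 other protein-coding genes within 1000 kb of Atf6 had at least 100 counts, among them Uhmk1 with 5393, Uap1 with 4364 and Fcgr2b with 3420. The cause of the low counts was not tested. The related sensor gene Atf6b averaged 132 CPM in Malt1-WT and 123 CPM in the vector control (log2 fold change 0.10). Wfs1, an ER membrane protein gene, had 2, 0 and 0 counts in Malt1-WT and 0, 2 and 0 in the vector control.

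**Figure D4:**
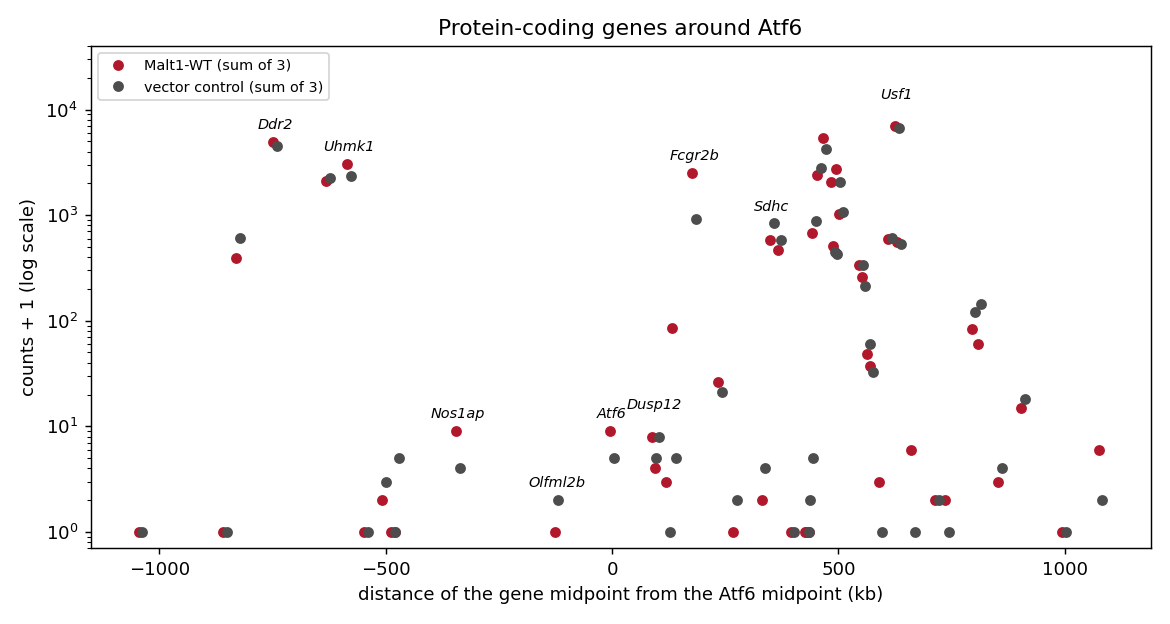
Counts plus 1 (y axis, log scale) of the protein-coding genes around Atf6, against the distance in kb between gene midpoints (x axis), summed over the 3 Malt1-WT libraries (red) and the 3 vector control libraries (grey). Atf6, Dusp12, Olfml2b and Nos1ap are near the floor in both groups, between Uhmk1 on one side and Fcgr2b on the other.

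In ERAD, 7 of the 9 tested genes were higher, 1 was lower and 1 did not pass, beside 31.0% higher and 30.2% lower among all genes tested. Syvn1 (chr19:6046576-6053712), the Hrd1 ubiquitin ligase, had the largest change. It stood at 139.8, 124 and 122 CPM in Malt1-WT and 76.2, 64.2 and 74.9 CPM in the vector control (log2 fold change 0.84, SE 0.0585, edgeR adjusted p = 3.71e-11). Its partner gene Sel1l, the adaptor that stabilises Hrd1, did not follow: it had 124, 123 and 117 CPM in Malt1-WT and 117, 122 and 115 CPM in the vector control, with overlapping groups (log2 fold change 0.04, 95% interval -0.04 to 0.12, edgeR adjusted p = 0.371). Annotated exons of Syvn1 share 91 bases with the opposite-strand gene Mrpl49 (1.87% of the Syvn1 exon length), and Mrpl49 was lower in Malt1-WT (log2 fold change -0.44). Selenos, a selenoprotein that links ERAD to the p97 ATPase, was 1.55-fold higher, with 70.5, 70.1 and 73.2 CPM in Malt1-WT and 44.8, 48.0 and 45.3 CPM in the vector control.

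The Edem genes, whose mannosidase-like proteins mark misfolded glycoproteins, went in different directions. Edem2 had 55.9, 54.2 and 55.0 CPM in Malt1-WT and 32.8, 37.7 and 33.7 CPM in the vector control (log2 fold change 0.66, SE 0.0586). Edem1 averaged 238 ± 5.12 CPM in Malt1-WT and 185 ± 4.83 CPM in the vector control (SD, n = 3 libraries each), a log2 fold change of 0.36. Edem3 had the lowest mean log2 CPM of the tested genes of the list, with 8.61, 10.5 and 10.4 CPM in Malt1-WT and 13.1, 10.8 and 12.3 CPM in the vector control. The groups did not overlap but lay close, and the log2 fold change was -0.29 (SE 0.112, edgeR adjusted p = 0.0208). Edem3 was not called without Malt1-WT replicate 1 (adjusted p = 0.127), without vector control replicate 1 (0.0947) or replicate 3 (0.0541), or by DESeq2 (0.102), and its adjusted p ranged from 0.00362 to 1 over all alternatives.

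Derl1 and Derl2 encode derlins, the channel-like proteins of ERAD. Derl1 had 152, 143 and 139.6 CPM in Malt1-WT and 104, 113 and 116 CPM in the vector control (log2 fold change 0.39), and Derl2 had 79.7, 75.6 and 70.1 CPM in Malt1-WT and 63.8, 64.5 and 64.0 CPM in the vector control (0.23). Derl2 did not pass the test against a 1.2-fold change. Annotated exons of Derl2 share 231 bases with the opposite-strand gene Mis12 (2.87% of the Derl2 exon length), and Mis12 was 0.19 lower on the log2 scale in Malt1-WT. Derl3, which is typical of secretory tissues, had 4, 2 and 4 counts in Malt1-WT and 4, 2 and 3 in the vector control. A difference was not detectable at such low counts. Herpud1, a membrane protein that recruits ERAD components, averaged 81.3 ± 2.97 CPM in Malt1-WT and 63.3 ± 0.952 CPM in the vector control (log2 fold change 0.36).

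The translocon, the channel through which new proteins enter the ER, had the lowest median change of the roles (log2 fold change 0.22). Sec61a1, its pore subunit, had 266, 276 and 275 CPM in Malt1-WT and 208, 205 and 206 CPM in the vector control (log2 fold change 0.40, SE 0.0319). Sec61b was 0.22 higher on the log2 scale, with groups that did not overlap, but it did not pass the test against a 1.2-fold change. Ssr1, a subunit of the translocon-associated protein complex, was not called, with 332, 338 and 328 CPM in Malt1-WT and 326, 323 and 334 CPM in the vector control. The 95% interval of its log2 fold change was -0.04 to 0.08.

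Across the 33 tested genes the groups did not overlap for 29 (87.9%), where this held for 64.4% of all genes tested. The 9 tested genes with an exact ERSE included 8 that were higher, with a median log2 fold change of 0.68 (range -0.06 to 0.99). The 20 tested genes with a promoter but no ERSE included 16 that were higher, with a median of 0.36 (range -0.29 to 1.95). Both counts stand against 31.0% called higher among all genes tested, and the ranges overlap widely. The group without an ERSE holds Dnajb11 and Herpud1, which have an ERSE-II. Hyou1, Manf, Derl1 and Sec61a1, for which no promoter sequence was used, are in neither group. Dnajc3, which has an ERSE, did not pass the test, while Ero1l and Dnajb9, which have none in the window, had the largest changes.

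Genes around these in the secretory pathway were compared by count and median, in 7 other lists holding 100 genes. Each count is to be read against the 31.0% higher and 30.2% lower among all genes tested. The lists were chosen with earlier results of these data known, so the counts are descriptive and not a test. Among 11 genes of PERK signalling and the integrated stress response, 9 were tested and all 9 were higher, with a median log2 fold change of 1.35. The others, Atf3 and Ppp1r15b, had too few counts to be tested. Atf3 had 4, 0 and 3 counts in Malt1-WT and 0, 0 and 0 in the vector control. Ppp1r15b had 4, 3 and 1 counts in Malt1-WT and 5, 0 and 2 in the vector control. The smallest change was that of Eif2s1 (0.13), which did not pass the test against a 1.2-fold change and is not an output of the response. Trib3 (1.88), Ppp1r15a (1.81) and Sesn2 (1.74) led this list, and Atf4 was 1.09 higher and Ddit3, which encodes CHOP, 1.54 higher. The PERK gene Eif2ak3 itself was not called in these libraries. Among 10 tested regulators of the UPR 7 were higher, 2 were lower and 1 was not called (median 0.19). Tmbim6, an ER membrane protein gene that restrains IRE1, was at 0.47. Mbtps1, the site-1 protease that cuts ATF6, averaged 214 ± 11.9 CPM in Malt1-WT and 297 ± 5.38 CPM in the vector control (log2 fold change -0.47), and Creb3l2, a related membrane-bound transcription factor, was at -0.46.

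**Figure D5:**
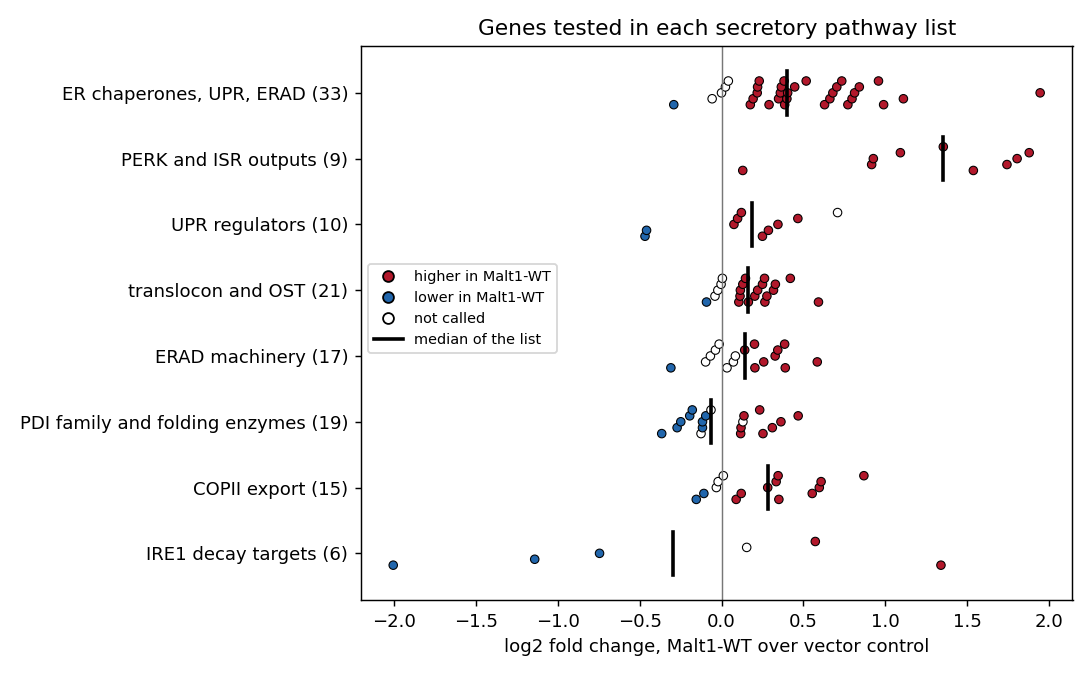
Log2 fold change of Malt1-WT over vector control (x axis) for every tested gene of the ER list and of 7 other lists (rows, number of tested genes in brackets), with the median of each list as a black bar; red points were called higher, blue lower and white neither. The ER list has its median at 0.40, the PERK and integrated stress response genes at 1.35, and the other folding enzymes at -0.06.

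The medians of the remaining 5 lists lay below the 0.40 of the ER genes, and their counts also stand against 31.0% higher and 30.2% lower among all genes tested. Of 21 genes of the translocon and oligosaccharyltransferase 16 were higher and 1 lower (median 0.16), led by Srprb (0.59), Srp54a (0.42) and Sec11c (0.33). Of 17 further ERAD genes 9 were higher and 1 lower (median 0.14), with Herpud2 at 0.58, the ubiquitin-conjugating enzyme gene Ube2j1 at 0.39 and Ubxn4 at 0.39. Of 19 further isomerases and folding enzymes 8 were higher and 8 lower (median -0.06), among them Prkcsh (0.47), Fkbp10 (-0.37) and Erp44 (0.36), the protein that retains ERO1 in the ER. Of 15 genes of export from the ER in COPII vesicles and of retrieval 10 were higher and 2 lower (median 0.28), and the KDEL receptor gene Kdelr3 (0.87), the coat subunit gene Sec23b (0.61) and the cargo receptor gene Mcfd2 (0.60) changed most. Of 6 transcripts known to be cut by IRE1, 2 were higher, 3 lower and 1 was not called (median -0.30). Sparc (-2.01) and Scara3 (-1.14) were lower and Hgsnat (1.34) was higher.

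The authors' deposited table gives a log2 fold change per gene that was close to these values, 1.93 for Ero1l and 1.10 for Dnajb9. A t statistic of 0 is listed for 33 of the 36 genes in the authors' deposited table, all of them changed by under 2-fold there, and 1 gene, Ero1l, has an adjusted p under 0.05 (0.00155). The other 3, Ero1l, Dnajb9 and Atf6, are changed by over 2-fold there and have a t above 0. This is the pattern of a test against a 2-fold change, although the column headers do not name the test. The authors' adjusted p-values are therefore not to be compared with the calls made here, which test against no change.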

How the data were processed

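RNA was measured in 3 Malt1-WT and 3 vector control libraries of E0771 cells. Per the labels' protocols, libraries were made with a directional kit from total RNA and sequenced as read pairs. The submitters' processing notes name STAR 2.7.3a and featureCounts 1.6.3, with Trim Galore 0.6.0 and build GRCm38.p6. Neither the gene annotation nor the strand option used in counting is stated there. The authors deposited raw counts per gene symbol, and, per the file headers, a log2 fold change, mean log2 expression, a t score, a p-value and an adjusted p-value from their own comparison.

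Counts were fitted with edgeR 4.0.16 in R 4.3.3: filterByExpr with a minimum count of 10 (13594 genes kept), TMM scaling (factors 0.973 to 0.976 in Malt1-WT and 1.02 to 1.03 in the vector control), robust quasi-likelihood tests over all genes, and Benjamini-Hochberg adjustment with calls under 0.05. CPM values are TMM-scaled. SE is the log2 fold change over the square root of F. Levels per kb use merged exons of GENCODE M21 (GRCm38), as do gene positions. The fits were tested on simulated counts in which only a small share of the genes was changed. That test does not cover a difference as broad as the one in these data. Alternatives were relative log expression, upper quartile and library size scaling, no filter, DESeq2 1.42.0, a replicate block, tests against 1.2-fold and 1.5-fold changes, and leaving out each library. No library was a repeat of another: chi-square per degree of freedom was 2.19 to 3.01 between libraries of the same group. Every listed gene is named. In each other list, up to 3 called genes with the largest absolute change at a mean log2 CPM of at least 1 are named. Further genes (Atf4, Ddit3, Eif2s1, Atf6b and the neighbours of Atf6) were chosen after their values were seen. The genes and lists were chosen with earlier results of these data known.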

Additional observations from a re-analysis of the deposited data

How the results depend on the processing

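All 28 higher genes remained called higher under each of 12 alternatives (3 other scalings, no filter, DESeq2, the replicate block and 6 left-out libraries), with a largest adjusted p of 0.0144. In tests against a fold, over all genes 2622 were higher and 2145 lower at 1.2-fold and 1389 higher and 861 lower at 1.5-fold, against 4210 and 4110 in the plain test. Of the ER genes 11 were higher at 1.5-fold. The count of lower ER genes was 1 (Edem3) in edgeR's plain test, 2 with library size only (Dnajc3 added), and 0 at 1.2-fold, 0 at 1.5-fold and 0 with DESeq2, where at an unadjusted p under 0.05 it was 0, 0 and 1. Leaving out a library gave 0 to 1. Same-numbered libraries did not deviate together (correlations -0.0261, -0.0207 and 0.0174, and 1 of 3 Malt1-WT libraries correlated best with its own number). No pairing by number was seen, but such correlations over all genes cannot exclude a shared culture or preparation batch. With the replicate block 28 ER genes were higher and 1 lower, and 4134 genes were higher and 4034 lower overall. Atf6, Wfs1 and Derl3 had too few counts for a test under the filter.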
